A study of Mus musculus with 18 samples.

Results

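The response of mouse myotubes to Erk3 silencing under palmitate was taken from 6 of 18 RNA libraries, 3 of siErk3 PA and 3 of siNtc PA. The members are these libraries and the 21772 of 55414 genes that reached 10 counts when all 18 libraries were summed. C2C12 myoblasts, an established mouse line, were transfected at confluence with a pool of siRNAs against Erk3 (siErk3), a pool against Mk5 (siMk5) or non-targeting siRNA (siNtc), and differentiated for 6 days. The myotubes then spent 16 h without serum, either in 0.5 mM palmitic acid coupled to BSA (PA) or in the BSA vehicle. All groups therefore share the transfection, the absence of serum and the BSA, and no untransfected group was analysed here. The model is 1 cell line. No source used here says whether a group's 3 libraries came from different cultures, so p-values measure the spread between these libraries, which may be technical. The 6 libraries held 20616411 to 28496727 counts, of which the 18S ribosomal RNA gene took 5.32 to 6.43% in siNtc PA and 3.74 to 6.77% in siErk3 PA. Myotube markers were high in all of them: the 9 markers together reached 14056 to 14551 TMM-normalized CPM (counts scaled to a common library size) in siNtc PA and 14454 to 15612 in siErk3 PA.

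Erk3, encoded by Mapk6, is an atypical MAP kinase. It lacks the usual activation motif of its family, is short-lived, and activates the kinase Mk5 (Mapkapk5). Palmitate is a saturated fatty acid that overloads muscle cells and is widely used to impair their insulin response and to provoke stress signalling. The comparison asks which transcripts differ when Erk3 is silenced in such cells. A single siRNA pool was set against non-targeting siRNA, so other effects of the pool cannot be told apart from loss of Erk3. Interferon-stimulated and fiber-type genes are described briefly, and the remaining genes in depth.

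Mapk6 (ENSMUSG00000042688, GRCm39 chr9:75276344-75317287) showed the silencing. The siNtc PA libraries held 215.4, 236.4 and 243.6 CPM and the siErk3 PA libraries 131.4, 119.4 and 108.7 CPM. Every silenced library was below every control library, and 51.7% of the control mean remained. The log2 fold change was -0.95 ± 0.06 (SE), with an adjusted p of 1.21e-12 (edgeR quasi-likelihood test with Benjamini-Hochberg adjustment, as for every adjusted p here unless another tool is named). A two-sided exact permutation test gave p = 0.1, the smallest that 3 against 3 libraries allow. Mapkapk5 did not pass the test (log2 fold change -0.07, adjusted p = 0.96). It was low, at 3.24 ± 0.70 CPM (SD, n = 3) in siNtc PA and 3.11 ± 0.49 CPM in siErk3 PA, and 56.4% of its exonic length is shared with another gene. Mapk6 itself was higher with PA in siNtc, at 231.8 ± 14.7 CPM against 132.3 ± 3.18 CPM in BSA (log2 fold change 0.81, adjusted p = 2.11e-13). With siErk3 it held 57.4 ± 2.64 CPM in BSA and 119.9 ± 11.4 CPM in PA. The silenced PA libraries thus stood near the siNtc BSA level.

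Under PA, 121 genes changed with siErk3, meaning an FDR below 0.05 together with a fold change exceeding 1.3 up or down, which is 0.556% of the genes tested. Of these, 94 were higher (0.432%) and 27 lower (0.124%). The interferon list, the genes that cells switch on in answer to interferons, contributed 36 genes, all higher. The fiber lists contributed 8. The other 77 lay outside both, 52 higher and 25 lower. Of the 52 raised, 3 belong to interferon-inducible GTPase families and were not on the list by name: Iigp1c (log2 fold change 1.03 ± 0.15), Gvin4 (1.43 ± 0.22) and F830016B08Rik (1.51 ± 0.15). The latter 2 were chosen after their values were seen. This leaves 49 raised and 25 lowered genes that are on none of these lists and not in such families by name. The split goes by lists and symbols, so some of them may still answer to interferon or differ between fiber types. The median change on the log2 scale was 0.65 for the raised ones and -0.73 for the lowered ones. All 49 raised genes were free of overlap between the groups, against 6.3% of all genes (12.1% counting both directions). They were selected on these same libraries, so this is no separate support. By level, 14 of the 49 and 11 of the 25 were under 5 CPM in the group where they were higher. RNA was measured in whole cultures, so fewer cells of a kind and less RNA per cell cannot be told apart.

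**Figure D1:**
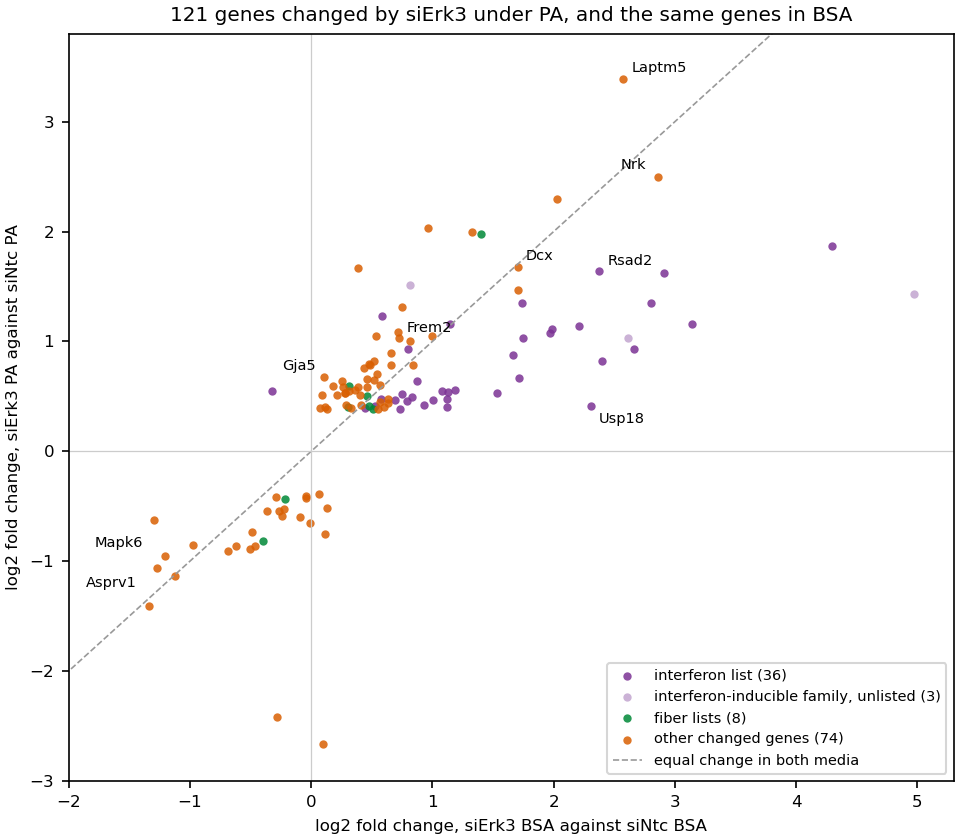
Log2 fold change of the 121 genes changed by siErk3 under PA (vertical axis), against the log2 fold change of the same genes for siErk3 BSA versus siNtc BSA (horizontal axis). Each point is a gene, the dashed line marks equal change, and all 49 other raised genes lie to the right of 0 in BSA, while most interferon genes lie below the dashed line.

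The most significant raised gene outside the lists was Frem2 (ENSMUSG00000037016, chr3:53421359-53564776), a large protein of the FRAS/FREM complex that anchors epithelia to the basement membrane. It stood at 15.5, 14.3 and 13.2 CPM in siNtc PA and at 28.2, 28.3 and 31.4 CPM in siErk3 PA. All silenced libraries were above all controls, with a log2 fold change of 1.03 ± 0.08 and an adjusted p of 2.58e-09. Its partner Fras1, chosen after its values were seen, went from 4.68, 3.60 and 3.39 to 5.43, 6.48 and 6.60 CPM (0.66 ± 0.13, adjusted p = 0.0035). This rise did not pass when siNtc PA and siErk3 PA were fitted alone.

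Of the 28 listed sarcomere genes, 0 changed by edgeR or DESeq2, against 121 of all 21772 genes by edgeR. An unadjusted p below 0.05 was reached by 7 of the 28, against 1802 of all genes, and 19 were below 0. Single genes of myosins and the cytoskeleton rose outside that list. Myh8 (chr11:67167950-67199460), the perinatal myosin heavy chain, rose from 235, 240 and 246 CPM to 387, 365 and 345 CPM. The groups were well apart, by 0.60 ± 0.06 on the log2 scale (adjusted p = 2.27e-08). Mylk4, a kinase of the myosin light chain kinase family, rose from 43.6, 47.7 and 42.0 to 62.7, 63.7 and 69.3 CPM (0.55 ± 0.07, adjusted p = 1.77e-05). Limch1, which binds non-muscle myosin and promotes actomyosin tension, rose by 0.42 ± 0.06 (adjusted p = 4.68e-05). Dcx, the microtubule-binding doublecortin of migrating neurons, rose from 1.57, 2.10 and 1.72 to 6.61, 6.15 and 4.42 CPM (1.68 ± 0.18, adjusted p = 4.46e-07). None of these 4 genes overlapped between the groups. Counts of the myosin heavy chain genes can share read pairs, since their coding sequences are alike. Of the 13 listed developmental myosins and actins, Myh8 alone changed. Myh3, the embryonic myosin, was just under the fold criterion at 0.38 (adjusted p = 2.38e-05) and passed it by DESeq2.

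Gja5 (ENSMUSG00000057123, chr3:96812009-96984732) encodes connexin 40, a gap junction channel of heart conduction tissue and vessels. It held 36.9, 31.6 and 30.1 CPM in siNtc PA and 47.1, 52.7 and 58.7 CPM in siErk3 PA, a log2 fold change of 0.68 ± 0.08 (adjusted p = 4.18e-06). The groups did not overlap. In BSA the gene was higher than in either PA group, at 85.7, 87.3 and 89.2 CPM with siNtc and 93.0, 89.4 and 98.9 CPM with siErk3. The siErk3 libraries were above the siNtc libraries there too, by a small margin that did not pass the test (0.10, adjusted p = 0.69). The test of the difference between the media, a siErk3 by PA interaction, gave 0.58 ± 0.11 (adjusted p = 0.044).

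The remaining leading genes are of diverse function. Mal, a raft protein of myelin and lymphocytes, rose by 0.79 ± 0.10 from 11.2 ± 0.30 CPM (SD, n = 3) to 19.2 ± 1.41 CPM. Klhl13, a substrate adaptor of cullin 3 ubiquitin ligases, rose by 0.70 ± 0.09 from 22.9 ± 2.44 to 37.4 ± 1.78 CPM. Upk1b, a uroplakin tetraspanin, and Prr32, of unknown role, rose by 1.09 ± 0.14 and 1.01 ± 0.14. Asgr2, a subunit of the asialoglycoprotein receptor, rose by 1.31 ± 0.20. Nrk, a kinase of the germinal center kinase family, had 11, 3 and 6 counts in siNtc PA and 42, 54 and 31 in siErk3 PA, so its fitted change of 2.50 ± 0.33 rests on few counts. The adjusted p of these 6 genes lay between 7.93e-06 and 0.00016, and none overlapped between the groups. Tpsab1, a mast cell tryptase, is a special case: it was nearly absent in BSA, at 0.18 ± 0.04 CPM in siNtc, and stood at 135, 145 and 144 CPM in siNtc PA and 186, 219 and 208 CPM in siErk3 PA (0.53 ± 0.06, adjusted p = 4.46e-07). Laptm5, chosen after its values were seen, had 2, 0 and 0 counts in siNtc PA and 11, 10 and 6 in siErk3 PA, too few for a fold change.

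Of the 34 listed genes of myogenic differentiation, 0 changed by edgeR or DESeq2, and 16 were above and 18 below 0. An unadjusted p below 0.05 was reached by 7 of the 34, against 1802 of all 21772 genes. Outside that list, single genes known from muscle rose. Vgll2, a cofactor of TEAD transcription factors in muscle, went from 8.59, 8.94 and 10.2 to 13.7, 12.3 and 12.5 CPM (0.48 ± 0.09, adjusted p = 0.0047). Asb2, a ubiquitin ligase subunit of muscle that targets filamins, rose by 0.64 ± 0.14 (adjusted p = 0.017), a call kept in 3 of the 6 fits that leave out a library. Wnt4, a secreted Wnt ligand, rose by 0.44 ± 0.10 (adjusted p = 0.022), and Igfn1, a sarcomeric protein of the Z disc, by 0.60 ± 0.13 (adjusted p = 0.019). Both were chosen after their values were seen, and their calls were kept in 2 and 3 of these 6 fits. Cd36, the fatty acid translocase that takes up long-chain fatty acids such as palmitate, held 41.6, 38.3 and 41.6 CPM in siNtc PA and 59.6, 48.4 and 53 CPM in siErk3 PA (0.41 ± 0.09, adjusted p = 0.018). The groups did not overlap, but the call was kept in 4 of the 6 fits that leave out a library, and lost without siNtc PA replicate 2 or siErk3 PA replicate 1. It was the only one of 34 genes of PPAR targets and fatty acid oxidation to change.

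**Figure D2:**
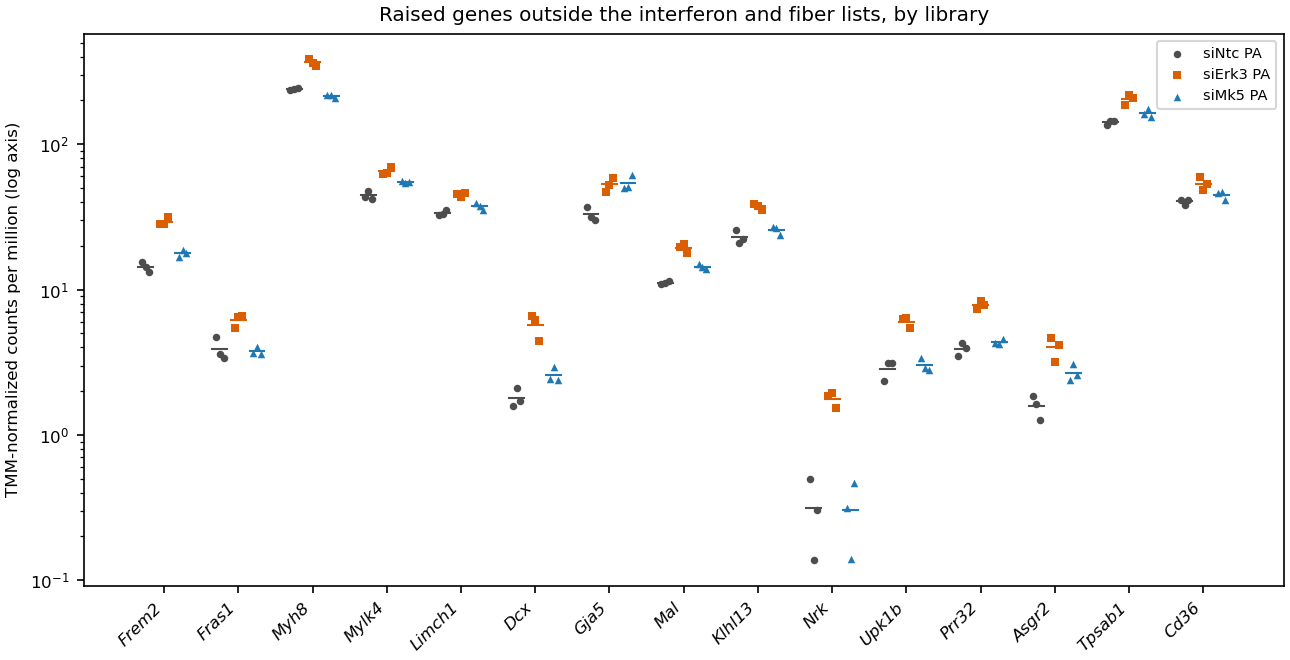
Level of 15 raised genes in each library of siNtc PA, siErk3 PA and siMk5 PA, in TMM-normalized CPM on a log axis, with the mean of 3 libraries as a bar. For all 15 genes the 3 siErk3 PA points lie above the 3 siNtc PA points. For Gja5 the siMk5 PA points lie at the level of siErk3 PA.

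The promoters of the raised genes were read for the sequence that marks interferon-responsive genes. The core of the interferon-stimulated response element, GAAA and GAAA with any 2 bases between them, on either strand, occurred in 3.76% of 21600 promoters, counted from 250 bases before to 50 after the start of the canonical transcript. It occurred in 21 of the 36 changed interferon genes (58.3%), in 2 of the 49 other raised genes (4.08%) and in 3 of the 25 lowered ones (12%). The E-box CAGCTG, a palindrome recognized by myogenic factors, occurred in 15.1% of all promoters, 14 of the 49 raised genes (28.6%), 5 of the 25 lowered ones and 6 of the 36 interferon genes (16.7%). Among the 8 changed fiber genes it occurred in 0. The MEF2 motif, CTA and TAG with any 4 bases between them, occurred in 3.76% of all promoters and in 0 of the 49 raised genes. It occurred in 0 of the 25 lowered genes, 3 of the 36 interferon genes (8.33%) and 1 of the 8 fiber genes (12.5%). The last 2 motifs were added after the data were seen, and a match describes letters, not binding. The 250 bases before the start of 5 genes are given as examples, from GRCm39, 5′ to 3′ on the gene's strand and ending at the base before the start. Capitals mark the response element core in Rsad2 (chr12:26506452-26506701, minus strand), Asgr2 (chr11:69983211-69983460, plus strand) and Cxcl14 (chr13:56444425-56444674, minus strand), and the E-box in Klhl13 (chrX:23231322-23231571, minus strand) and Igfn1 (chr1:135934081-135934330, minus strand).
Rsad2: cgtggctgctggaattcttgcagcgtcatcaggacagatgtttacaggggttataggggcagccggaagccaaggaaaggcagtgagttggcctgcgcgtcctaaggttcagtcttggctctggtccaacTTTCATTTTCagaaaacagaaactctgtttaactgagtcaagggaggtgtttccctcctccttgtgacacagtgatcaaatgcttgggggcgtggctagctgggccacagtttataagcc
Asgr2: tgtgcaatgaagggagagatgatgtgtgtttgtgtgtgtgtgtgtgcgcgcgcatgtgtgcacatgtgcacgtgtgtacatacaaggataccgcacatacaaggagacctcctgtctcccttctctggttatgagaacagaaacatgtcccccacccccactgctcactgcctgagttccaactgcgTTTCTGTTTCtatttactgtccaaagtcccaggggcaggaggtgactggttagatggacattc
Cxcl14: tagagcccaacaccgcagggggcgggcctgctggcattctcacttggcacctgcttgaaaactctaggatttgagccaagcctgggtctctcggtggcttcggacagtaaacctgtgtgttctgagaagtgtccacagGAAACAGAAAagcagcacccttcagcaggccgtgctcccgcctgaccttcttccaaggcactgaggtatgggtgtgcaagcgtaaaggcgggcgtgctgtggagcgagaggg
Klhl13: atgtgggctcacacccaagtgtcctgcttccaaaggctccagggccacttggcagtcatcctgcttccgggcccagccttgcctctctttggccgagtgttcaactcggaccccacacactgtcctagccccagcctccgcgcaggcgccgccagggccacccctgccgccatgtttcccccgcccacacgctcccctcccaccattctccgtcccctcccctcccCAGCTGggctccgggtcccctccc
Igfn1: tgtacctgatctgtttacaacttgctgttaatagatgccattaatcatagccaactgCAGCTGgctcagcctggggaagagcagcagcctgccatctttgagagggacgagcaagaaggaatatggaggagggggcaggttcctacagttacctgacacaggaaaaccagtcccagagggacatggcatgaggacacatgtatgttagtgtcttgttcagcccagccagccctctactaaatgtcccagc
The core ends 111 bases before the start in Rsad2, 54 in Asgr2 and 103 in Cxcl14, and the E-box ends 19 bases before it in Klhl13 and 188 in Igfn1. Rsad2 and Asgr2 rose and Cxcl14 fell. These genes share the pattern with its 2 free bases, and a role of the pattern in their changes was not tested.

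The lowered genes were fewer and less even between libraries. Besides Mapk6, those with the smallest adjusted p were Asprv1 and Cxcr6. Asprv1, a skin aspartic protease, fell from 4.18, 3.56 and 3.84 to 2.01, 1.59 and 1.99 CPM (-1.06 ± 0.17, adjusted p = 0.00043). Cxcr6, a chemokine receptor of lymphocytes, fell from 6.75, 7.11 and 7.48 to 4.73, 3.51 and 3.57 CPM (-0.85 ± 0.14, adjusted p = 0.00043). Neither overlapped. The enzymes Car3 and Aldh3b3 both fell. Car3, a carbonic anhydrase of slow muscle and fat, fell from 4.95, 4.38 and 5.51 to 2.50, 3.11 and 2.13 CPM (-0.91 ± 0.17, adjusted p = 0.0023). Aldh3b3, an aldehyde dehydrogenase, fell by 0.86 on the log2 scale (SE 0.16, adjusted p = 0.0026). Spink4, a secreted protease inhibitor, was low and fell to 0.57, 0.69 and 0.55 CPM from 2.02, 1.46 and 1.36. Further low genes also fell, each with an adjusted p between 0.015 and 0.017: Ncf1, a subunit of the phagocyte NADPH oxidase (-0.59 ± 0.13), the ligand Wnt10b (-0.86 ± 0.19) and the scaffold Cnksr1 (-0.76 ± 0.17). Ncf1 and Wnt10b kept their call in 2 and Cnksr1 in 3 of the 6 fits that leave out a library, and DESeq2 did not call Cnksr1.

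A second set of lowered genes encodes secreted and matrix proteins, and its libraries were spread widely. Cxcl14, a chemokine, held 29.3, 27.0 and 21.3 CPM in siNtc PA and 9.11, 14.4 and 18.8 CPM in siErk3 PA (-0.89 ± 0.15, adjusted p = 0.00058). Cilp, a matrix protein that binds TGF-beta, held 376, 336 and 279 CPM and then 190, 217 and 273 CPM (-0.54 ± 0.10, adjusted p = 0.0023). In both genes library 1 was the highest of the controls and the lowest of the silenced ones, and library 3 of each group came near the other group. The groups overlapped for Thbs1, thrombospondin 1, at 1862.3, 1518.7 and 1364.3 CPM against 971.6, 1184.1 and 1421.5 CPM (-0.41 ± 0.09, adjusted p = 0.020). They also overlapped for the chemokine Cxcl12 (45.8, 40.2 and 31.3 against 19.9, 27.5 and 34.7 CPM, adjusted p = 0.027) and for Igfbp4, a binding protein of insulin-like growth factors (34.5, 31.8 and 27.3 against 19.8, 22.8 and 27.8 CPM, adjusted p = 0.040). Podnl1, Thbs3, Pcolce2, which assists procollagen processing, Chrdl1, a BMP antagonist, and the chemokine Cxcl5 completed the secreted genes under the naming rule, with log2 fold changes between -0.73 and -0.39 and adjusted p between 0.013 and 0.035. Of 25 lowered genes, 21 did not overlap between the groups, against 5.83% of all genes, but the 25 were selected on these same libraries. Over all 34 extracellular matrix genes tested, 31 had a log2 fold change below 0, with a median of -0.16 against -0.0037 for all genes. Thbs1 alone changed, and DESeq2 called none of them. Against 1802 of 21772 over all genes, 18 of these 34 had an unadjusted p below 0.05. Their mean log2 CPM was 7.66, 7.54 and 7.41 in siNtc PA and 7.15, 7.37 and 7.51 in siErk3 PA, so the groups overlapped. For siErk3 against siNtc in BSA, the median of these genes lay above 0, at 0.07 against 0.02 for all genes.

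**Figure D3:**
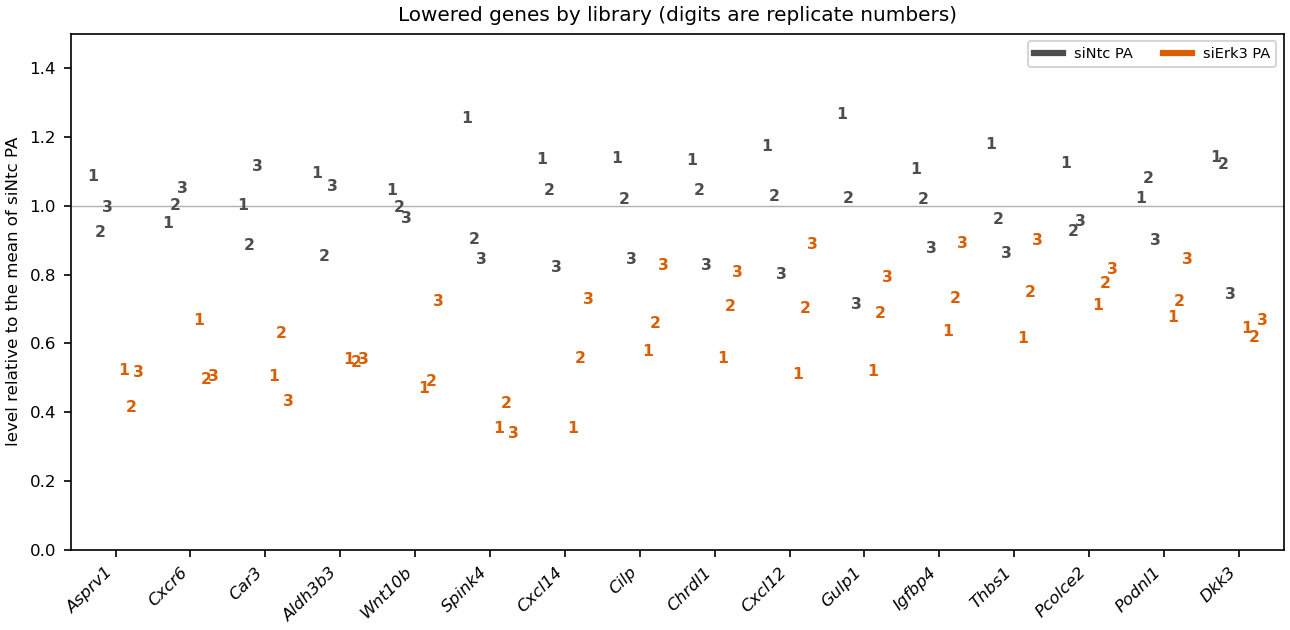
Level of 16 lowered genes in each of the 3 siNtc PA and 3 siErk3 PA libraries, relative to the siNtc PA mean of the gene, on a linear axis from 0. Digits are the replicate numbers. From Cxcl14 to Thbs1, library 1 is the highest control and the lowest silenced library and the third libraries of both groups meet, while Asprv1, Cxcr6, Car3 and Aldh3b3 separate the groups.

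The calls differed in how far they rested on single libraries. Of the 49 raised genes, 23 were called in every one of the 6 fits that leave out a library, against 7 of the 25 lowered ones. Without siErk3 PA replicate 3, 73 genes outside the lists were lower in place of 25, and without siNtc PA replicate 3 there were 51. Without siErk3 PA replicate 2 there were 10, without siNtc PA replicate 2 there were 10 and without siNtc PA replicate 1 there were 11. Across the same fits the raised genes outside the lists numbered 42 to 54. With only the 6 libraries in the fit, 36 genes outside the lists changed, 29 higher and 7 lower.

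The libraries in BSA are separate from those in PA, though the same siRNA pool was used, and show what siErk3 did without the fatty acid. All 49 raised genes had a log2 fold change above 0 there, against 54.9% of all genes, and 25 passed the test in the same direction (0.588% of all genes were higher in BSA). Of the 25 lowered genes, 21 were below 0 in BSA, against 44.6% of all genes, and 9 passed the test (0.198% of all genes were lower). Mapk6, the target of the pool in both media, is counted among the 25, the 21 and the 9. Frem2 held 24.03 ± 1.68 CPM in siNtc BSA and 39.4 ± 3.71 in siErk3 BSA (SD, n = 3), a log2 fold change of 0.72. Dcx held 4.26 ± 0.93 and 13.5 ± 1.52 CPM, and Myh8 342 ± 11.9 and 505 ± 47.3. For these 3 genes the change passed the test in both media, and the siErk3 PA means of 29.3 CPM for Frem2, 5.73 for Dcx and 365 for Myh8 lay above those of siNtc BSA, a difference that was not tested. Among the lowered, Asprv1, Cxcr6, Car3, Aldh3b3 and Spink4 passed in both media, as did Cxcl14 of the secreted genes (-0.50 in BSA, adjusted p = 0.039). Thbs1 did not pass in BSA (4559 to 4857 CPM with siNtc against 4481 to 4607 CPM with siErk3, log2 fold change -0.05, adjusted p = 0.92), nor did Cxcl12 (-0.22, adjusted p = 0.46).

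**Figure D4:**
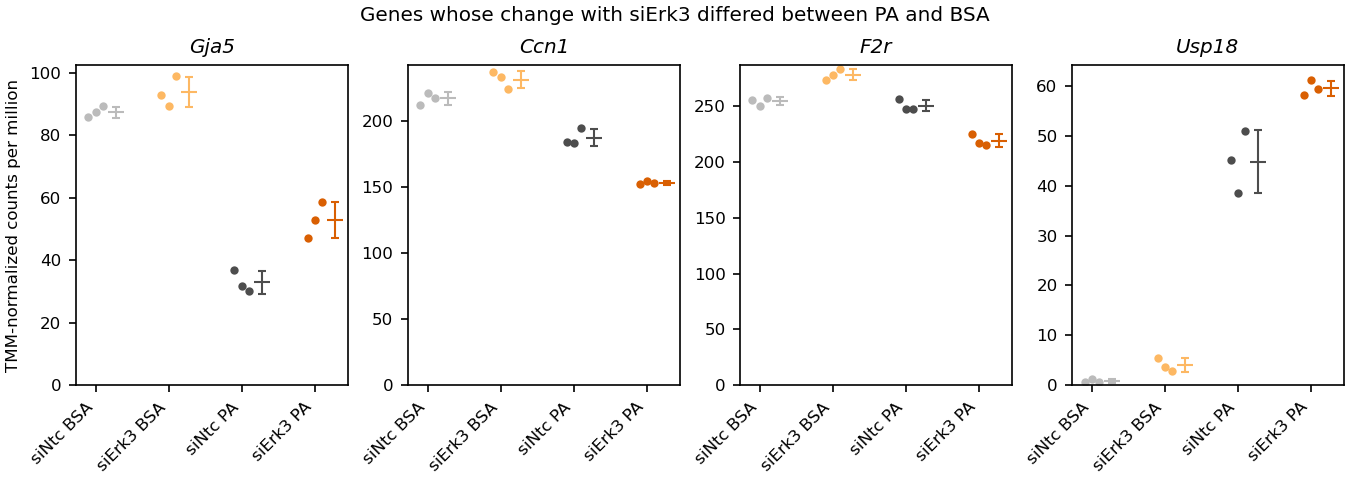
Level of Gja5, Ccn1, F2r and Usp18 in siNtc and siErk3 with BSA and with PA, in TMM-normalized CPM from 0. Points are libraries, and the bars beside them show the mean and SD of 3. For Gja5 the siErk3 points lie above the siNtc points in both media, with a wider gap in PA, Ccn1 and F2r are lower with siErk3 in PA and slightly higher in BSA, and Usp18 is far higher in PA (38.5 to 61.1) than in BSA (0.52 to 5.45), where its fold change is the larger.

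A difference between the media was tested for every gene. It passed for 8 genes (0.0367%), 2 with a positive interaction (0.00919%) and 6 with a negative one (0.0276%). Of these, 5 were interferon genes (Usp18, Ifit1, Oas2, Oasl2 and Iigp1), whose log2 fold change was 0.22 to 0.93 in PA and 1.26 to 2.67 in BSA. The BSA fold changes started from low levels. In siNtc BSA, Usp18, Ifit1, Oas2 and Iigp1 held 0.52 to 2.88 CPM and Oasl2 6.95 to 8.75 CPM. In siNtc PA the same 5 genes held 32.7 to 247 CPM. Outside the interferon list were Gja5, Ccn1 and Apol8. Apol8, Oas2, Oasl2 and Iigp1 were named after their values were seen, to complete the 8. Ccn1 (Cyr61), a matricellular target of YAP, held 184, 183 and 194 CPM in siNtc PA and 152, 154 and 153 CPM in siErk3 PA, whereas in BSA it held 212, 221 and 217 CPM with siNtc and 237, 233 and 224 CPM with siErk3. The interaction was -0.38 ± 0.07 (adjusted p = 0.041). F2r, the thrombin receptor, passed the FDR only, at -0.32 ± 0.06. These calls are sensitive to settings: 0 genes passed under edgeR's filterByExpr, where 959 of 15040 had an unadjusted p below 0.05, and 7 passed by DESeq2.

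Mk5 silencing served as the second reference under PA. Mapkapk5 held 2.31 ± 0.13 CPM (SD, n = 3) in siMk5 PA against 3.24 ± 0.70 CPM in siNtc PA. This drop did not pass the test (log2 fold change -0.49, adjusted p = 0.47). The paper states that silencing was verified by Western blot. Set directly against siMk5 PA, siErk3 PA differed in 224 genes (1.03%), 186 higher (0.854%) and 38 lower (0.175%). This comparison uses the same siErk3 PA libraries as the one against siNtc PA, so it is no separate support for it. All 36 changed interferon genes were higher with siErk3 than with siMk5. The interferon genes of the interaction test were, however, lower in siMk5 PA than in siNtc PA. Usp18 held 24.2, 17.7 and 22.4 CPM in siMk5 PA against 45.1, 38.5 and 50.9 CPM in siNtc PA. The direct comparison can therefore hold a change with siMk5 as well as one with siErk3. Frem2 (17.8 ± 0.96 CPM in siMk5 PA), Dcx (2.58 ± 0.31), Nrk (0.31 ± 0.16) and Myh8 (216 ± 6.80) were each higher with siErk3, with adjusted p between 2.85e-11 and 1.92e-05. Gja5 held 49.7, 50.6 and 61.0 CPM in siMk5 PA, and the difference from siErk3 PA was -0.02 ± 0.08 (adjusted p = 0.96). For Mylk4 and Cd36 it was 0.25 ± 0.07 and 0.25 ± 0.09, with adjusted p of 0.087 and 0.23.

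Interferon genes were among those with the smallest adjusted p, along with Mapk6, Frem2 and Myh8. Rsad2 (viperin), an antiviral radical SAM enzyme, rose from 32.6 ± 4.28 to 101.3 ± 5.24 CPM (SD, n = 3) without overlap, by 1.64 ± 0.10 on the log2 scale (adjusted p = 1.21e-12). Within the list it was followed by Cmpk2 (1.35 ± 0.10), Trim30a (1.35 ± 0.12), Oas1g (1.62 ± 0.15) and Oas3 (1.16 ± 0.12). Genes of the Oas and Trim30 families resemble each other, so their counts can share read pairs. Of the 182 listed genes tested, 36 rose by edgeR and 161 were above 0. DESeq2 called 27 higher and 1 lower, C1s1. Of 24 oxidative fiber genes tested, 5 rose and 1 fell, and of 26 glycolytic ones 1 rose and 1 fell. Among the oxidative genes, Mybpc1 (0.50 ± 0.06), Myl6b (0.40 ± 0.05), Actn2 (0.42 ± 0.05), Myh7 (0.38 ± 0.05), and Smtnl2 (1.98 ± 0.35, under 2 CPM) rose and Myl2 (-0.82 ± 0.15) fell. Among the glycolytic genes, Pvalb (0.59 ± 0.13) rose and Mylk2 (-0.44 ± 0.09) fell. The call of Myh7 was kept in 4 and that of Pvalb in 3 of the 6 fits that leave out a library.

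In pathways tied to lipid, stress and energy metabolism few genes passed the test. Of 39 lists, 27 had no changed member by edgeR, though 80 of their 532 genes had an unadjusted p below 0.05 and DESeq2 called 1, Myh3. Over all 21772 genes, 0.556% changed by edgeR and 1802 had an unadjusted p below 0.05. At that share few changed members are awaited in a short list, so their absence says little about a pathway. Of the 27 genes of sterol synthesis, 24 were below 0 with a median of -0.09, against 11121 of all 21772 genes below 0, and 10 had an unadjusted p below 0.05. Fdps (-0.24, adjusted p = 0.22) and Idi1 (-0.18, adjusted p = 0.18) had the smallest p. The mean log2 CPM of the sterol list was 6.25, 6.24 and 6.17 in siNtc PA and 6.03, 6.18 and 6.21 in siErk3 PA, so the groups overlapped. In BSA its median lay on the other side of 0, at 0.13 against 0.02 for all genes. Of the 34 genes of the ATF4 stress response, 30 were above 0 with a median of 0.08, against 10588 of all 21772 genes above 0. An unadjusted p below 0.05 was reached by 3, led by Phgdh, the first enzyme of serine synthesis (0.19, adjusted p = 0.27). The mean log2 CPM of this list was 6.67, 6.78 and 6.88 in siNtc PA. In siErk3 PA it was 6.91, 6.89 and 6.72, so the groups overlapped. The 44 respiratory chain genes had a median of -0.0056, and 0 passed by edgeR or DESeq2, with 2 at an unadjusted p below 0.05. The 26 genes of the unfolded protein response had 0 by edgeR, by DESeq2 and at an unadjusted p below 0.05, and their log2 fold changes lay between -0.07 and 0.09. Nqo1, a NRF2 target that reduces quinones, passed the FDR but was just under the fold criterion, at 46.7 ± 0.33 against 60.1 ± 4.35 CPM (0.37, adjusted p = 0.0014). The same held for the muscle genes Palld (0.26), Smyd1 (0.28), Srl (0.23), Cav3 (0.28) and Mymx (0.29), with adjusted p between 0.0023 and 0.030.

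**Figure D5:**
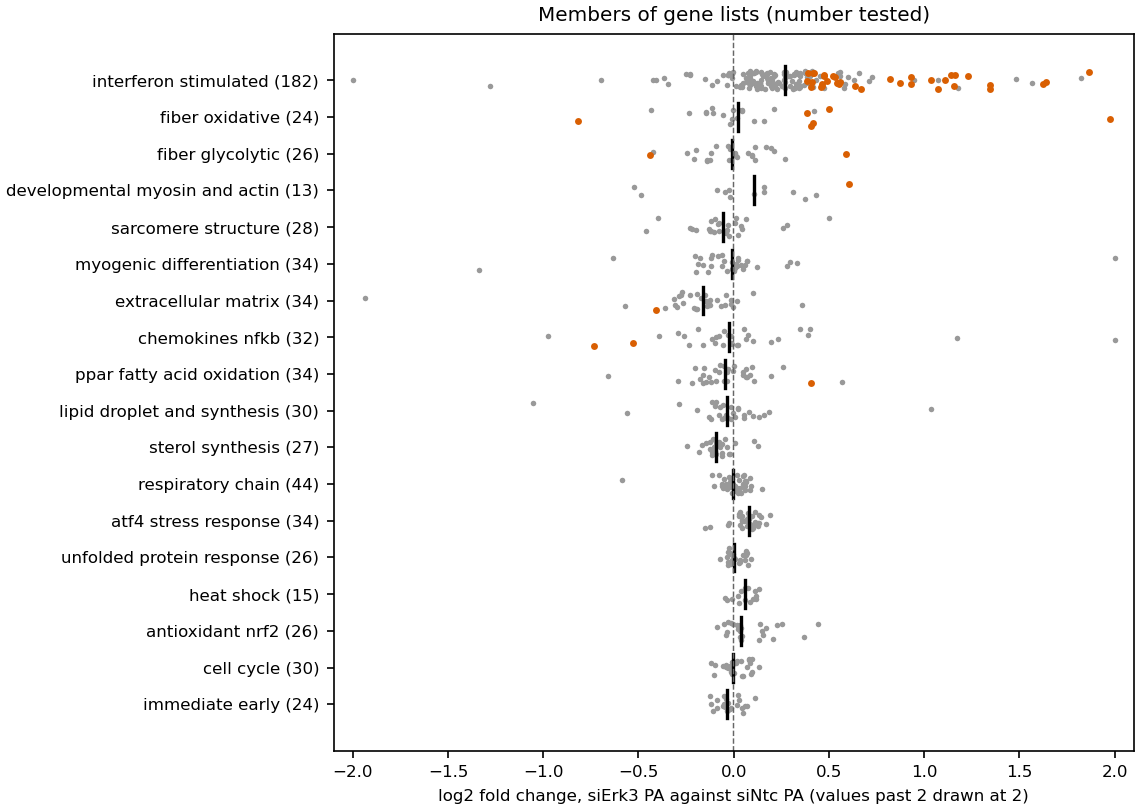
Log2 fold change of siErk3 PA against siNtc PA for each tested member of 18 gene lists. Orange points passed the test, black bars are list medians, and the dashed line is the median of all genes. Sterol synthesis and matrix genes sit slightly left of the line, ATF4 targets slightly right, and the interferon list clearly right.

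Markers of other cells that C2C12 cultures could hold were compared as well. None of the reserve myoblast (9 tested), adipocyte (4), osteoblast (7), smooth muscle (7), macrophage (4) and endothelial (6) markers changed by edgeR or DESeq2. Among them 4 had an unadjusted p below 0.05, against 1802 of all 21772 genes. The 9 reserve or dividing myoblast markers summed to 908 to 914 CPM in siNtc PA and 845 to 878 CPM in siErk3 PA, 8 of 9 being below 0. The smooth muscle markers summed to 1082 to 1286 against 986 to 1263 CPM and the osteoblast markers, chiefly Spp1, to 2357 to 2492 against 2072 to 2233 CPM. The adipocyte markers summed to 29.2 to 32.6 against 24.8 to 31.2 CPM. Macrophage markers summed to under 2.6 CPM and endothelial ones to under 2.4 CPM in every library. The part of these cells in the changes of matrix genes was not tested.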

How the data were processed

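Members and gene lists were chosen with earlier results of these data known. Counts of read pairs per gene, deposited by the authors without normalization, were used as they are. The file header names featureCounts 2.0.0, GRCm39, Ensembl 105, reverse-strand counting, primary alignments and a mapping quality of at least 3, and the study's methods name STAR with the same build. The submitters' processing notes list mm10, which the header contradicts, with STAR, featureCounts, DESeq2, Trim Galore, Salmon and SAMtools. Read pairs mapping to similar genes can blur gene families. A table of normalized log2 values was not used. Columns of other samples numbered 0. Symbols and transcript starts came from GENCODE M39.

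All 18 libraries were normalized by TMM and fitted in edgeR 4.0.16 (R 4.3.3), with 1 coefficient per group. The study states DESeq2, run here in version 1.42.0 as an alternative. On counts simulated for siErk3 PA versus siNtc PA, for 21331 genes with 200 changed by a log2 fold change of 1, 100% were recovered and 3 unchanged genes were called. The changed genes were drawn only from those with higher mean counts, so recovery of low genes or of smaller changes was not examined. Single genes were also compared by exact permutation. Counting error weighs on low genes. Python 3.11.15 with pandas 2.3.3 served for tables.

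Named genes are Mapk6 and Mapkapk5, the 15 raised and 15 lowered genes outside the interferon and fiber lists with the smallest adjusted p among those with a symbol and no overlap, the changed members of other lists, 5 interferon genes, 5 genes of the interaction, and up to 2 members with the smallest p of lists without a changed member. Of these, 1 gene that the rule names is not reported here. Others are marked, except those that complete a short count. Alternatives were DESeq2, its size factors, other filters, the replicate block, fewer libraries, the 18S gene Rn18s-rs5 left out and the FDR alone.

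Replicate numbers did not pair the libraries: deviations from the group mean correlated at -0.42, -0.07 and -0.36 between same-numbered libraries of siErk3 PA and siNtc PA, over 12734 genes. They correlated at 0.36 between siErk3 PA 1 and siNtc PA 3 and at 0.37 between siErk3 PA 3 and siNtc PA 1. No pair of libraries differed as little as sampling noise. The sequences of the siRNAs and the proteomic data were not used here.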

Additional observations from a re-analysis of the deposited data

Results flagged for a closer look

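The effect of siErk3 differed between PA and BSA, by the interaction test of the edgeR fit (Benjamini-Hochberg adjustment), for 9 genes, of which 8 also passed the fold criterion. Values are the log2 fold change in PA minus that in BSA. Ccn1, with a log2 fold change of -0.29 in PA and 0.09 in BSA, had an interaction of -0.38. F2r had -0.32 (-0.19 in PA and 0.13 in BSA), under the fold criterion. Gja5 was 0.58, from 0.68 in PA and 0.10 in BSA. Apol8, an apolipoprotein L, was 1.28, from -1.30 in BSA and -0.01 in PA. The interferon genes were negative: Usp18 -1.89, Ifit1 -1.70, Oas2 -1.73, Oasl2 -0.94 and Iigp1 -1.58, each with the larger log2 fold change in BSA. Their siNtc libraries held 0.52 to 8.75 CPM in BSA, against 32.7 to 247 CPM in PA. The adjusted p of the 9 lay between 0.041 and 0.049, close to the threshold.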

How the results depend on the processing

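The 121 changed genes became 110 by DESeq2 (101 shared), 208 with no filter on low counts, 186 by the FDR alone and 71 with the 6 libraries alone. Outside the interferon and fiber lists, the 77 became 153, 133 and 36 under the last 3 settings. The replicate block gave 123, 78, 9 for the interaction and 224 against siMk5 PA, and so moved none of these counts by over 1.5 times. Mapk6 stayed at -1.06 to -0.85 and passed in every fit. Leaving out 1 library gave 85 to 168 changed genes, 53 to 127 outside the lists, 0 to 24 in the interaction and 179 to 240 against siMk5 PA. Without replicate 2 of both groups, 64 genes changed (39 outside the lists), and without replicate 3 of both, 319 (272, of which 198 lower). Both settings were chosen after seeing the data. The cause was not tested. The 8 interaction genes became 4 with DESeq2's size factors, 2 without Rn18s-rs5, 72 with no filter, 4 with the libraries of the groups compared, and 0 with filterByExpr or with at least 10 counts in every library, where 959 and 838 genes had an unadjusted p below 0.05 by edgeR. Counting interferon-inducible families with the interferon list left 74 genes. Leaving out 1 library put Mapkapk5 at -0.23 to 0.10. Near 0, its sign turned without siNtc PA replicate 2 (0.10), without siErk3 PA replicate 2 (0.06) and without replicate 2 of both (0.23), and that of Pdia6 (-0.0036) and Tagln (0.0029) without replicate 1 of both. Thbs1, Cxcl12 and Chrdl1 each lost their call in 8 of 14 alternatives, while Frem2, Dcx and Myh8 kept theirs in all 14. Depth limits the genes under 5 CPM.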
